A study of Mus musculus with 2 samples.

Results

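Eph receptors and their ligands, the ephrins, were followed between the distal and the proximal side of mouse limb-mesenchymal organoids. The 10 genes described are the receptors Epha3, Epha4, Epha7, Ephb2, Ephb3 and Ephb4 and the ligands Efna2, Efna5, Efnb1 and Efnb2. They were taken by gene symbol from the authors' deposited table of the distal against proximal comparison, and all 10 were found among its 13916 protein-coding genes. Of these, Epha3 alone differed between the sides at an adjusted p under 0.05, and it was lower in distal. Its relatives Epha4 and Epha7 were not called, and neither were the EphB receptors or the ephrins.

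Eph receptors are receptor tyrosine kinases of the cell surface, and ephrins are ligands that stay bound to the surface of the neighbouring cell. Ephrin-A ligands are held by a lipid anchor and mainly bind EphA receptors, while ephrin-B ligands span the membrane and mainly bind EphB receptors and also Epha4. Contact signals in both directions, forward into the receptor cell and reverse into the ephrin cell, and often ends in repulsion, sorting or boundary formation. In the limb bud the family is known for position-dependent expression in the mesenchyme, for the sorting of mesenchymal cells and for the guidance of motor axons and migrating muscle precursors.

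The organoids were grown from limb mesenchymal cells of Slc:ICR mouse embryos in medium with Fgf8b and Wnt3a for 48 h, a condition that both sides share. On day 2, 5 organoids from 4 cultures were frozen, cut at 10 µm and fixed with 4% paraformaldehyde. Light of 365 nm, given for 3 min by a 20x objective, then freed cDNA from distal or proximal areas, where it had been made in the section with light-sensitive caged primers (photo-isolation chemistry). The 5 barcoded distal regions formed 1 library and the 5 proximal regions another, so side and library are the same split and cannot be told apart, and neither side has another library to check a difference. With 4 cultures for 5 regions a side, some regions share a culture, and every p-value below, deposited or computed over regions, treats regions as independent. Sharing within a side tends to make such p-values too small. Sharing of organoids or cultures across the sides could not be modelled, since the labels tie no region to a culture. The net direction of the error in the p-values is therefore not known.

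The values used for single regions are counts recovered from the authors' deposited table, which itself lists 1 mean per gene. The size factor of a region, which scales its counts for depth, ran from 1.502 to 2.42 in proximal and from 0.329 to 0.832 in distal. Scaled to the summed means of the listed genes, the shallowest region corresponds to 46991 counts and the deepest to 345649. A count divided by the size factor is called a normalized count. Regions are numbered within a side from the largest size factor to the smallest, because the labels' own region numbers could not be tied to them, and a number links no distal region to a proximal one. A count of 0 allows up to 3 counts, which is 9.13 normalized counts in the shallowest distal region and 1.24 in the deepest proximal one, and this limit covers counting error only.

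The labelled tissue was checked with a list of 8 limb mesenchyme genes. All 8 were in the authors' deposited table, with means from 1.08 to 159 normalized counts, among them Prrx1 at 159 and Twist1 at 74.0, and Msx1 was called higher and Pdgfra and Tbx5 lower in distal. Of 7 endothelial markers 5 were listed, with 19 counts in all 10 regions together and Tek and Tie1 absent. Of 5 blood markers only Ptprc was listed, with 11 counts. Surface ectoderm markers summed to 11 counts over 4 of 6 genes, and nerve markers to 58 counts over 5 of 5.

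**Figure D1:**
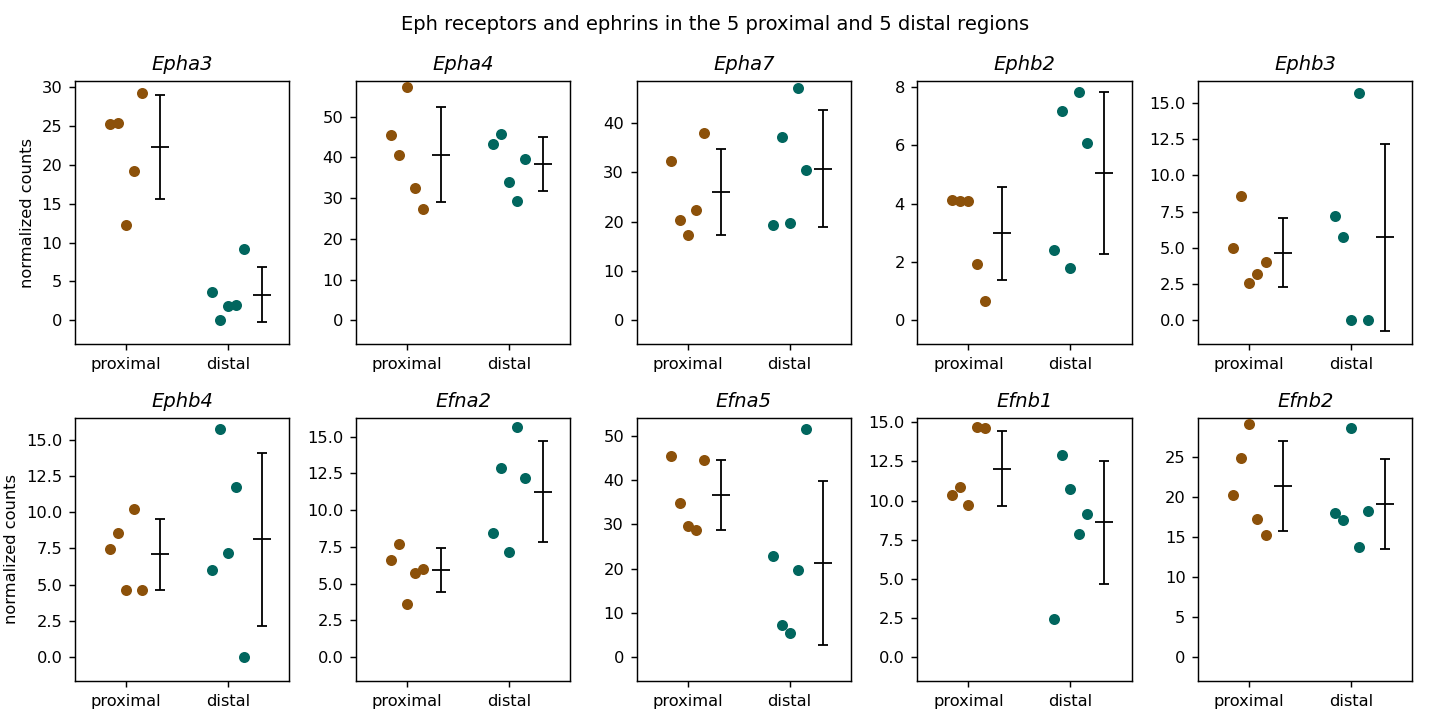
Normalized counts of the 10 genes (vertical axis, linear and different in each panel) in the 5 proximal and 5 distal regions. Each point is 1 region, and the bar beside it gives the mean with 1 SD. Among the 10, only for Epha3 do all 5 distal regions lie below all 5 proximal regions. The share of all genes with such a separation was not worked out.

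Epha3 encodes an EphA receptor that binds ephrin-A ligands, with high affinity for the product of Efna5. The gene, ENSMUSG00000052504, lies on chromosome 16 at 63543532 to 63864175 in build GRCm38. In the proximal regions its normalized counts were 25.2, 25.3, 12.3, 19.1 and 29.3. In the distal regions they were 3.61, 0, 1.79, 1.96 and 9.13. The highest distal region stayed below the lowest proximal one, and the region at 0 allows up to 4.30 normalized counts. The raw counts behind these values were 215 in proximal and 8 in distal, so the distal level rests on few molecules. The mean was 22.3 ± 6.66 normalized counts in proximal and 3.30 ± 3.50 in distal (SD, n = 5 regions each).

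The authors' deposited table gives Epha3 a log2 change, distal over proximal, of -3.00 (SE 0.59), a p of 3.1e-07 and an adjusted p of 9.02e-05. As a fold, the authors' deposited table thus puts Epha3 8.02-fold lower in distal, with a 95% interval from 3.61-fold to 17.8-fold. Of 13916 genes in the authors' deposited table, 136 (0.977%) passed an adjusted p of 0.05, 81 of them (0.582%) lower in distal. Against that share, 1 of the 10 Eph and ephrin genes was called, and it was lower in distal. Among the 6519 genes whose mean reaches 4 normalized counts, a level that all 10 genes reach, 133 (2.04%) were called. An exact two-sided permutation test of log2(normalized count + 1) over the 5 and 5 regions gave p = 0.00794 for Epha3. That is the smallest p that this design allows, and it treats regions that share cultures as independent. Fitted again without each region in turn, with the dispersion held, the log2 change of Epha3 stayed between -3.54 and -2.61. In tissue regions, fewer cells that express a gene and less RNA per cell cannot be told apart.

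Most muscle markers, too, had lower values in distal. All 7 muscle markers were in the authors' deposited table, and 3 of them, Myog, Actc1 and Myl1, were called, all lower in distal. Of the 7 log2 changes, 6 were negative and 1 was positive, that of Pax7 at 0.63 (SE 3.16), a gene with 2 counts, both proximal. For Pax3, Pax7, Myod1, Myog and Myf5, whose region counts were recovered, the summed level was 24.0, 16.3, 13.3, 6.38 and 22.6 normalized counts in the proximal regions. In the distal regions the same sum was 0, 1.43, 0, 1.96 and 0. The proximal regions summed to 164 muscle marker counts and the distal ones to 2. The part of muscle cells in the difference of Epha3 was not tested.

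**Figure D2:**
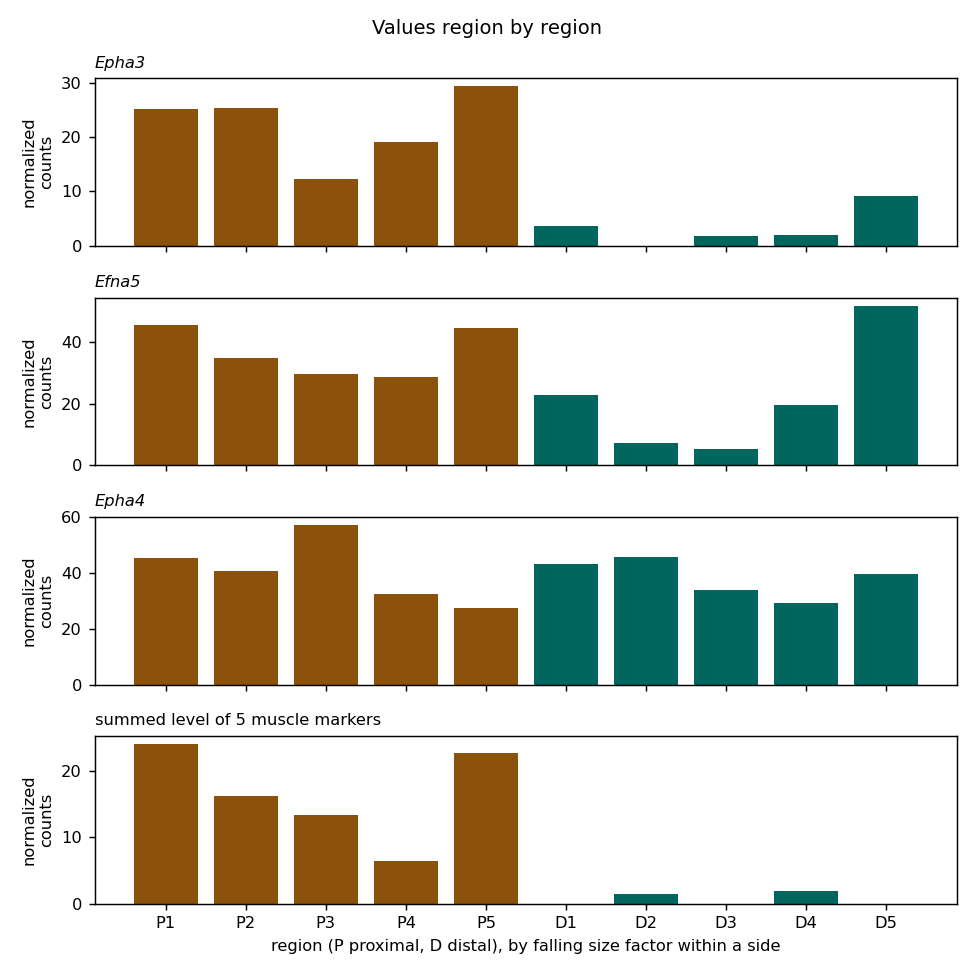
Normalized counts of Epha3, Efna5 and Epha4 and of the sum of 5 muscle markers (vertical axes, from 0) in each of the 10 regions, proximal P1 to P5 and distal D1 to D5, ordered by falling size factor within a side. Epha3 and the muscle sum were low in all distal regions, Efna5 was high in D5 at 51.7, and Epha4 ran from 27.3 to 57.3 in proximal and from 29.4 to 45.8 in distal.

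The 250 bases before the annotated start of Epha3 are shown because it is the only called gene of the family. The window is chr16:63864176-63864425 of GRCm38.p6 in RefSeq, minus strand, with 62.8% G and C. All letters are lower case, because none of the 3 motifs searched occurs in it.

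Epha3: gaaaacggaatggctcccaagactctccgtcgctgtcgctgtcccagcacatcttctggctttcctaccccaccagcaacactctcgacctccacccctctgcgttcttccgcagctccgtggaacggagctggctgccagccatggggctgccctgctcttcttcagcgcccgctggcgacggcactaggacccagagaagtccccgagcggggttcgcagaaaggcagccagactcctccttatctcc

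The motifs, searched on both strands, were CAATAAA as bound by HOX13 proteins, TGACAG as bound by MEIS proteins, and the E-box CAGCTG of muscle bHLH factors. RefSeq gave a start for all 10 genes. CAATAAA was in 0 of the 10 windows and in 270 of 10989 windows of the same length before listed genes (2.46%). TGACAG was in 1 of the 10, Efnb2, and in 1536 of the 10989 windows (14.0%), and CAGCTG was in 1 of the 10, Ephb3, and in 1304 (11.9%). In Efnb2 the matches lay 18 and 164 bases before the start used, and in Ephb3 the match lay 137 bases before it. For Epha4, Epha7, Ephb2 and Ephb3 this start lies inside the gene coordinates given here. Their windows are thus partly or wholly inside the gene, as is the Ephb3 match. For Ephb2 and Efnb1 the sequence at the start used was not found in a GENCODE transcript of the gene. TGACAG ends in the letters with which CAGCTG begins, so their matches can overlap, but none of the 10 windows held both. A match is only a match of letters, and its absence says nothing of the factor.

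Epha4, the receptor that binds ligands of both classes and steers motor axons in the limb, is ENSMUSG00000026235 on chromosome 1 at 77367182 to 77515107. Its proximal regions had 45.5, 40.7, 57.3, 32.5 and 27.3 normalized counts. Its distal regions had 43.3, 45.8, 34.0, 29.4 and 39.6, and all 5 lay within the proximal range. The means were 40.7 ± 11.7 in proximal and 38.4 ± 6.72 in distal (SD, n = 5 regions each), a difference smaller than the spread of either side. The authors' deposited table gives Epha4 a log2 change of -0.08 (SE 0.24, adjusted p 0.991). The 95% interval computed from the authors' deposited table ran from -0.55 to 0.39 for Epha4, the narrowest among the 10 genes.

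Epha7, another EphA receptor, is ENSMUSG00000028289 on chromosome 4 at 28813066 to 28967503. Its normalized counts were 32.3, 20.4, 17.4, 22.3 and 37.9 in proximal and 19.2, 37.2, 19.7, 47.0 and 30.4 in distal. The groups overlapped, with 4 distal regions inside the proximal range and 1 above it. The authors' deposited table gives Epha7 a log2 change of 0.22 (SE 0.30, adjusted p 0.991), with a 95% interval from -0.37 to 0.82. The summed level of the 3 EphA receptors was 89.0 ± 10.7 normalized counts in proximal and 72.4 ± 11.4 in distal (SD, n = 5 regions each). Without Epha3 the sums were 66.7 ± 9.47 and 69.1 ± 11.5, which differ by less than the spread of either side.

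Pairs of genes were also set side by side within each region, as the log2 ratio of their normalized counts with 1 added to each. The 3 pairs were chosen after their values were seen, so the ratios are given as a description only. Permutation tests were run on them, but their p-values are not used for that reason. Because of the added 1, a ratio with few counts still depends on depth, which was lower in every distal region. Epha3 over Epha4 was -0.85 ± 0.81 in proximal and -3.56 ± 1.28 in distal, a difference of -2.71 (SD, n = 5 regions each). The lowest proximal ratio, -2.13, lay just below the highest distal one, -2.002. Epha3 over Epha7 was -0.22 ± 0.30 in proximal and -3.19 ± 1.47 in distal, a difference of -2.97 (SD, n = 5 regions each), with no overlap.

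**Figure D3:**
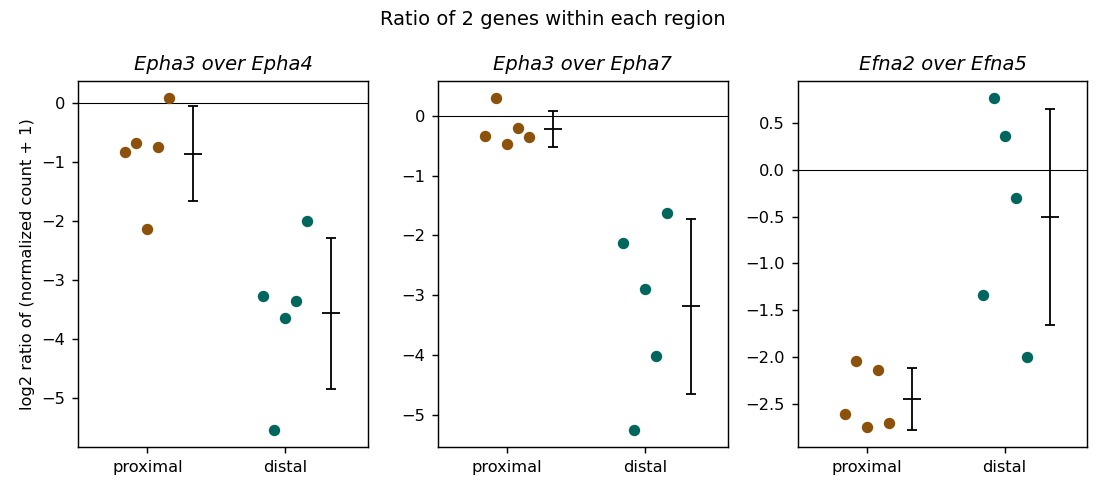
Log2 ratio of 2 genes within each region, computed from normalized counts with 1 added (vertical axis), for Epha3 over Epha4, Epha3 over Epha7 and Efna2 over Efna5. Each point is 1 region and the bar gives the mean with 1 SD; the distal minus proximal difference of the means was -2.71, -2.97 and 1.94 in the 3 panels.

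The EphB receptors were thinly covered. Ephb2, ENSMUSG00000028664 on chromosome 4 at 136647536 to 136836326, encodes a receptor for ephrin-B ligands. It had 31 counts in proximal and 14 in distal. By region it stood at 4.14, 4.07, 4.09, 1.91 and 0.666 normalized counts in proximal and 2.403, 7.16, 1.79, 7.84 and 6.09 in distal. Of the distal regions, 3 lay above all proximal ones and 2 within their range. The authors' deposited table gives Ephb2 a log2 change of 0.66 (SE 0.63, adjusted p 0.991). Its interval, from -0.56 to 1.89, leaves room for a change in either direction.

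Ephb3, ENSMUSG00000005958 on chromosome 16 at 21204620 to 21223309, encodes a related receptor for ephrin-B ligands. It had 47 proximal and 18 distal counts. Region by region it reached 4.96, 8.59, 2.56, 3.19 and 3.99 normalized counts in proximal and 7.21, 5.73, 0, 15.7 and 0 in distal. The 2 distal regions at 0 allow up to 5.37 and 9.13 normalized counts, and both limits lie above the lowest proximal value. The authors' deposited table gives Ephb3 a log2 change of 0.35 (SE 0.63, adjusted p 0.991), with a 95% interval from -0.90 to 1.59. This sign turned with 1 region, as the refitted log2 change was -0.31 without distal region 4.

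Ephb4, ENSMUSG00000029710 on chromosome 5 at 137350109 to 137374522, encodes the receptor that marks veins and pairs with the product of Efnb2. It had 69 proximal and 26 distal counts. The normalized counts of this gene were 7.45, 8.59, 4.60, 10.2 and 4.66 in proximal and 6.01, 15.8, 7.16, 11.8 and 0 in distal. The authors' deposited table gives Ephb4 a log2 change of 0.29 (SE 0.47, adjusted p 0.991), with a 95% interval from -0.62 to 1.20. The distal region at 0 allows up to 9.13 normalized counts. The sign of the change also turned with 1 region, to a refitted -0.099 without distal region 2. An exon of Ephb4 overlaps one of Zan on the other strand, and whether the counting used strand is not given in the sources used here. Endothelial markers, which bear on the usual site of Ephb4, summed to 0 to 2.71 normalized counts in the proximal regions and 0 to 7.16 in the distal ones. Their part in the values of Ephb4 and Efnb2 was not tested.

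The 2 ephrin-A genes leaned in opposite directions, though neither was called. Efna2, ENSMUSG00000003070 on chromosome 10 at 80179482 to 80190010, encodes a lipid-anchored ligand of EphA receptors. By region, its normalized counts were 6.62, 7.69, 3.58, 5.74 and 5.99 in proximal and 8.41, 12.9, 7.16, 15.7 and 12.2 in distal. Of the distal regions, 4 lay above every proximal region and 1 within their range. The means were 5.92 ± 1.51 and 11.3 ± 3.46 (SD, n = 5 regions each), from 58 proximal and 32 distal counts. The authors' deposited table gives Efna2 a log2 change of 0.89 (SE 0.40, p 0.0283, adjusted p 0.716). The exact two-sided permutation test over the regions gave p = 0.0159 for Efna2, unadjusted. It too treats regions that share cultures as independent. Of all genes in the authors' deposited table, 845 (6.07%) had an unadjusted p under 0.05, 489 (3.51%) lower and 356 (2.56%) higher in distal. Among the 6519 genes whose mean reaches 4 normalized counts, a level that all 10 reach, 646 had such a p. Of the 10, 3 had one, with Epha3 and Efna5 lower and Efna2 higher.

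Efna5, ENSMUSG00000048915 on chromosome 17 at 62602957 to 62881317, encodes a ligand of Epha3, Epha4 and Epha7. Its proximal regions were close together at 45.5, 34.8, 29.7, 28.7 and 44.6 normalized counts. Its distal regions were spread over 22.8, 7.16, 5.37, 19.6 and 51.7. In distal, 4 regions lay below every proximal region and 1, the shallowest, lay above them all with 17 counts. The means were 36.7 ± 8.01 in proximal and 21.3 ± 18.6 in distal (SD, n = 5 regions each). Its dispersion, 0.122, was 2.58 times the trend value, the highest such ratio among the 10. That trend was fitted here to genes with lower means and extended to the level of Efna5.

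The authors' deposited table gives Efna5 a log2 change of -0.89 (SE 0.38, p 0.0189, adjusted p 0.576). Its 95% interval ran from -1.64 to -0.15. The exact two-sided permutation test gave p = 0.0873 for Efna5 over regions that share cultures. Fitted without distal region 5, the log2 change was -1.40 with p = 0.000947, which still lay above 0.000465, the largest p among the called genes of the authors' deposited table. Fitted without distal region 3 it was -0.64, and the p of that negative binomial fit was 0.108. The size of the Efna5 difference therefore turned on single distal regions, and the refit p-values also treat regions that share cultures as independent. Distal region 5 was the highest distal region for both Epha3 and Efna5, at 3 and 17 counts.

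Within the same region, Efna2 over Efna5 had a log2 ratio of -2.45 ± 0.33 in proximal and -0.50 ± 1.16 in distal, a difference of 1.94 (SD, n = 5 regions each). The highest proximal ratio was -2.04 and the lowest distal one -2.001, so the sides were separated by a small gap. This pair was picked because its members leaned apart. The summed level of the 2 ephrin-A genes ran from 33.2 to 52.1 normalized counts in proximal and from 12.5 to 63.9 in distal.

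Of the ephrin-B ligands, Efnb1, ENSMUSG00000031217 on chromosome X at 99136061 to 99149022, encodes a ligand known for sorting cells at tissue boundaries. Its normalized counts were 10.3, 10.9, 9.71, 14.7 and 14.6 in proximal and 2.403, 12.9, 10.7, 7.84 and 9.13 in distal. In distal, 3 regions lay below all proximal ones and 2 within their range. The authors' deposited table gives Efnb1 a log2 change of -0.52 (SE 0.41, adjusted p 0.991), with a 95% interval from -1.31 to 0.28. It was not called, and its exact two-sided permutation test gave p = 0.119 over regions that share cultures.

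Efnb2, ENSMUSG00000001300 on chromosome 8 at 8617235 to 8661242, encodes the ligand that marks arteries and that Ephb4 and Epha4 bind. By region it stood at 20.3, 24.9, 29.1, 17.2 and 15.3 normalized counts in proximal and 18.0, 17.2, 28.6, 13.7 and 18.3 in distal. The means, 21.4 ± 5.65 and 19.2 ± 5.598 (SD, n = 5 regions each), differed by less than the spread of either side. The authors' deposited table gives Efnb2 a log2 change of -0.17 (SE 0.30, adjusted p 0.991), with a 95% interval from -0.75 to 0.41. The ephrin-B sum ran from 29.96 to 38.9 normalized counts in proximal and from 20.4 to 39.4 in distal, and the EphB sum from 9.32 to 21.3 and from 6.09 to 35.3.

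**Figure D4:**
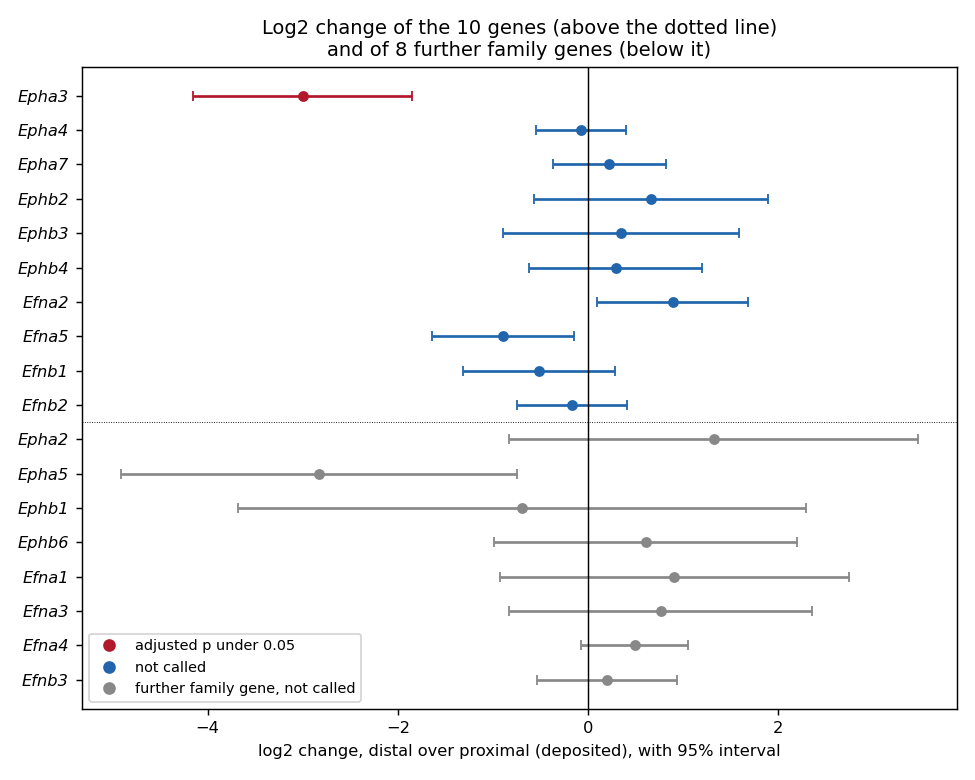
Log2 change, distal over proximal, from the authors' deposited table (horizontal axis) with its 95% interval, for the 10 genes and for 8 further family genes. Epha3 is the only gene called at an adjusted p under 0.05; the intervals of Efna2, Efna5 and Epha5 also exclude 0 without adjustment.

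Across the 10 genes, 5 log2 changes were positive and 5 negative in the authors' deposited table. Their median was 0.07 and that of all 13916 genes also 0.07, while over genes whose mean reaches 4 normalized counts it was -0.02. The lowest of the 10 log2 changes was that of Epha3, -3.00, and the highest that of Efna2, 0.89.

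Of 12 further Eph receptors and ephrins, 8 were in the authors' deposited table and 0 were called, 1 of them with an unadjusted p under 0.05. Epha1, Epha6, Epha8 and Epha10 were not listed there. The gene with the unadjusted p was Epha5, an EphA receptor, named here after its values were seen. Region by region it reached 2.90, 2.71, 3.58, 5.74 and 2.66 normalized counts in proximal and 0, 0, 1.79, 0 and 0 in distal, from 33 counts against 1. All distal regions lay below all proximal ones, though a count of 0 allows up to 9.13 normalized counts in the shallowest of them. The authors' deposited table gives Epha5 a log2 change of -2.83 (SE 1.06, adjusted p 0.347), with a 95% interval from -4.91 to -0.75. Efna4, an ephrin-A ligand, had a log2 change of 0.49 (SE 0.29, adjusted p 0.991) in the authors' deposited table. Efnb3, an ephrin-B ligand, had 0.20 (SE 0.37) in the authors' deposited table.

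Partners of the pathway are given beside the 0.977% of all genes that were called, a share at which lists of this size would hold few or no calls. Among 24 genes of forward signalling, which carry the receptor signal to the cytoskeleton, all were listed in the authors' deposited table, 0 were called and 0 had an unadjusted p under 0.05. Of these, 11 log2 changes were positive and 13 negative. Fyn, a Src family kinase, had -0.80 (SE 0.41, adjusted p 0.946) in the authors' deposited table. Ptk2, the focal adhesion kinase, had 0.36 (SE 0.25) in the authors' deposited table.

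Among 7 genes of reverse signalling and PDZ partners of ephrin-B, the authors' deposited table likewise gave 0 calls and 0 unadjusted p under 0.05. Sdcbp, the adaptor syntenin, had a log2 change of 0.04 (SE 0.21) in the authors' deposited table. Of 10 genes of shedding and turnover, which cut or remove receptor and ligand, 0 were called and 0 had an unadjusted p under 0.05 in the authors' deposited table. Ptpn1, a tyrosine phosphatase, had -0.52 (SE 0.37), and Cblb, a ubiquitin ligase, had 0.20 (SE 0.34) in the authors' deposited table. In all 4 lists together, 49 of 53 genes were in the authors' deposited table, 25 with a positive and 24 with a negative log2 change. The median log2 change of the 49 was 0.04, beside 0.07 over all genes.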

How the data were processed

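The series was analysed from the authors' deposited table of 1 comparison, distal against proximal. Per the file headers, the columns have the names that DESeq2 gives its results. The mean is a signal in normalized counts that the authors averaged over the regions. The authors fitted the log2 change with a standard error, and the statistic is a score, the quotient of these deposited values. The p-value and the adjusted p are the authors', deposited over more features than the genes listed. The builds mm10 and GRCm38 are named in the submitters' processing notes. The aligner, the counting, the annotation and the use of strand are not given in the sources used here.

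Region counts were recovered as follows. The lowest deposited means repeat on steps, since 1 count in 1 region gives a fixed mean, and steps shared by at least 20 genes gave 10 size factors. The side of each region follows from the log2 change that the authors' contrast gives genes with 1 count there. For each gene, sets of whole counts near the fitted means were searched for one that returned the deposited mean, standard error and log2 change in a negative binomial refit with fitted means held at or above 0.5. A single set matched for 9 of the 10 genes. For Efna5, 3 sets matched and 1 of them also gave the dispersion expected from a model fitted to genes with lower means. The refits returned the deposited log2 change of the 10 genes to within 3.23e-10, but such a match was a condition of the search and is no check. For 1743 low genes the counts followed from the mean alone. Their refits, with the dispersion set by the deposited standard error, returned the deposited log2 change of 1741 to within 2e-9. The search was tested on simulated data.

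Calls are genes with a deposited adjusted p under 0.05, and 95% intervals are normal. Gene coordinates are from RefSeq, and transcripts and exons are from GENCODE release M21. BLAST 2.17.0, run on the last 300 bases of the transcripts only, found for the 10 genes no match in another gene of at least 200 bases at 95% identity or more. The genes named are the 10, and in each pathway list any called gene and the 2 genes with the smallest p among those with a mean of at least 10. The genes, lists and motifs were chosen with earlier results of these data known. Other thresholds, adjustments, filters and centrings, exact permutation tests with a pseudocount of 1 or 0.5, and the removal of each region were tried. Python 3.11.15, numpy 2.4.6, scipy 1.17.1 and pandas 2.3.3 were used. Myl1 and Actc1 have no region values here.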

Additional observations from a re-analysis of the deposited data

How the results depend on the processing

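The count of 1 called gene among the 10 and of 0 among the pathway genes was the same under all 7 other thresholds, adjustments, filters and centrings tried. The thresholds of 0.01 and 0.1 and an added log2 change of at least 1 could change neither count. The deposited adjusted p was 9.02e-05 for Epha3, at least 0.576 for the others of the 10 and at least 0.347 for the pathway genes. Centring subtracted a median of 0.07 or of -0.02 from every log2 change. The plain log2 ratio of Epha3, -2.76, lay between -3.60 and -2.43 when each region was left out. All 10 refits without a region, added after seeing the data and with the dispersion held, kept Epha3 under the largest p of a called gene. In those refits 7 of the 10 genes kept their sign. Epha4 turned to 0.07 without proximal region 3, in the plain ratio (0.073) and in the refit (0.073), and to a refitted 0.0011 without distal region 4. Ephb3 turned to -0.44 and -0.74 on the permutation scale with a pseudocount of 1 and 0.5, and without distal region 4 to a plain -0.53 and a refitted -0.31. Ephb4 turned to -0.25 and -0.41 on that scale, and without distal region 2 to a plain -0.19 and a refitted -0.099. With each region left out, plain log2 ratios ran from -0.20 to 0.073 for Epha4, from -0.53 to 0.64 for Ephb3 and from -0.19 to 0.52 for Ephb4. Ephb3 and Ephb4, like Epha3, have distal regions at 0. The cause of the turns was not tested. Efna2, not called by its adjusted p, had an exact permutation p = 0.0159 with either pseudocount, unadjusted. In the negative binomial refits its p was under 0.05 in 7 of 10 fits and reached 0.0921 without distal region 4. No paired analysis was possible because each side is 1 library and the region numbers pair no regions. Distal depth limits the precision, with 8 distal counts for Epha3 and 14, 18 and 26 for Ephb2, Ephb3 and Ephb4.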
